A study of Mus musculus with 16 samples.

Results

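C-type lectin receptors are membrane proteins of myeloid cells that bind glycans, lipids and products of dying cells. Activating receptors pass the signal through the kinase Syk, either from a motif in their own tail (Clec7a, Dectin-1) or through the adaptor FcRγ (Clec4n, Clec4d and Clec4e), and from Syk to the Card9 complex and NF-κB. Inhibitory receptors such as Clec4a2 and Clec12a carry a tail motif that recruits phosphatases, and endocytic receptors such as Clec10a and Cd207 take up glycosylated ligands. The 10 genes described are Clec4a1, Clec4a3, Clec4d, Clec4e, Clec4n, Clec7a, Clec4a2, Clec12a, Clec10a and Cd207. They were chosen by name and found by their symbols among the 30819 genes of the deposited matrix. All 10 passed the filter on low values, which used the deposited log2 values, in every comparison. Cd207 passed it in monocytes although it had few reads there.

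The libraries came from tumour macrophages and tumour monocytes of C57BL/6J mice, either wild type or C3-/-, that bore a sarcoma under the skin grown from MN/MCA1 cells. MN/MCA1 cells are a mouse fibrosarcoma line passed between animals, and C3 is the central protein of the complement cascade. Tumours were taken at day 21. The 4 groups were wild-type macrophages and wild-type monocytes (mice 1 to 4) and knockout macrophages and knockout monocytes (mice 6 to 9), with 4 libraries each. Both sorted populations were CD45+, CD11b+, Ly6G- and CD11c-. Monocytes were gated as Ly6C+ and F4/80-, and macrophages as Ly6C- and F4/80+. The labels name neither the age of the mice nor the part of C3 that the knockout allele lacks.

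The libraries held 18689307 to 29049161 recovered reads each. Levels are given as normalized reads, which are reads recovered from the deposited log2 values and divided by the authors' size factor of the library. Differences are given on the deposited log2 scale, which draws values together, so that they understate the change in reads. C3 fell from 4008 ± 858 to 1234 ± 168 normalized reads in knockout macrophages and from 15160 ± 718 to 4925 ± 288 in knockout monocytes (SD, n = 4 per group), with no overlap of the groups in either cell type. The sorted cells carried the defining markers of their gates. Adgre1, which encodes F4/80, averaged 27260 and 26350 normalized reads in wild-type and knockout macrophages against 5928 and 7348 in monocytes. Ly6c2 averaged 16220 and 14510 in wild-type and knockout monocytes against 10.26 and 5.21 in macrophages. Other macrophage markers differed between genotypes. Of 11 macrophage markers tested, 5 fell in knockout macrophages (Mertk, Mrc1, Apoe, Cd63 and Vcam1; limma), with Mertk at 2553 and 1618 normalized reads on average. The summed list fell from a range of 837300 to 978100 to one of 667700 to 796500, without overlap. Red blood cell markers also fell in knockout macrophages, 4 of 4 tested, from sums of 427.5 to 1272 to sums of 145.1 to 241.7. The part of these shifts in the receptor values was not tested. In sorted bulk samples, fewer cells of a type and less RNA per cell cannot be told apart.

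Compared per kilobase of annotated exon, Clec4n was the highest of the 10 genes in all 4 groups, at 8304 ± 968 normalized reads per kb in wild-type macrophages, 6992 ± 878 in knockout macrophages, 7820 ± 1190 in wild-type monocytes and 7913 ± 1060 in knockout monocytes (SD, n = 4 each). In each group its lowest library lay above the highest library of the next gene. In wild-type macrophages Clec4a3 (3084 ± 402 per kb), Clec7a (2495 ± 243) and Clec4a2 (1237 ± 58.2) came next, each apart from its neighbour in the order. Clec12a, Clec4a1, Clec4d, Cd207 and Clec4e followed, from 967.4 down to 325.2 per kb, and neighbours in this stretch overlapped between libraries. Clec10a was lowest at 33.04 ± 4.02 per kb. Knockout macrophages had nearly the same order, but with Cd207 (625.1 ± 166 per kb) before Clec4d (607.8 ± 151), a pair whose libraries overlapped.

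In wild-type monocytes Clec4a3 (4118 ± 217 per kb), Clec4e (3803 ± 467), Clec7a (3487 ± 336) and Clec4d (2722 ± 435) followed Clec4n, and each overlapped its neighbour. Clec4a1, Clec4a2, Clec12a, Clec10a and Cd207 came after them, each apart from the next, with Cd207 at 5.27 ± 5.94 per kb (SD, n = 4). In knockout monocytes the order differed only in Clec7a (4060 ± 599 per kb), which stood before Clec4a3 (3804 ± 383), again with overlapping libraries. Levels per kb rest on the union of exons of each gene in GENCODE M21, which need not be the transcript these cells use.

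**Figure D1:**
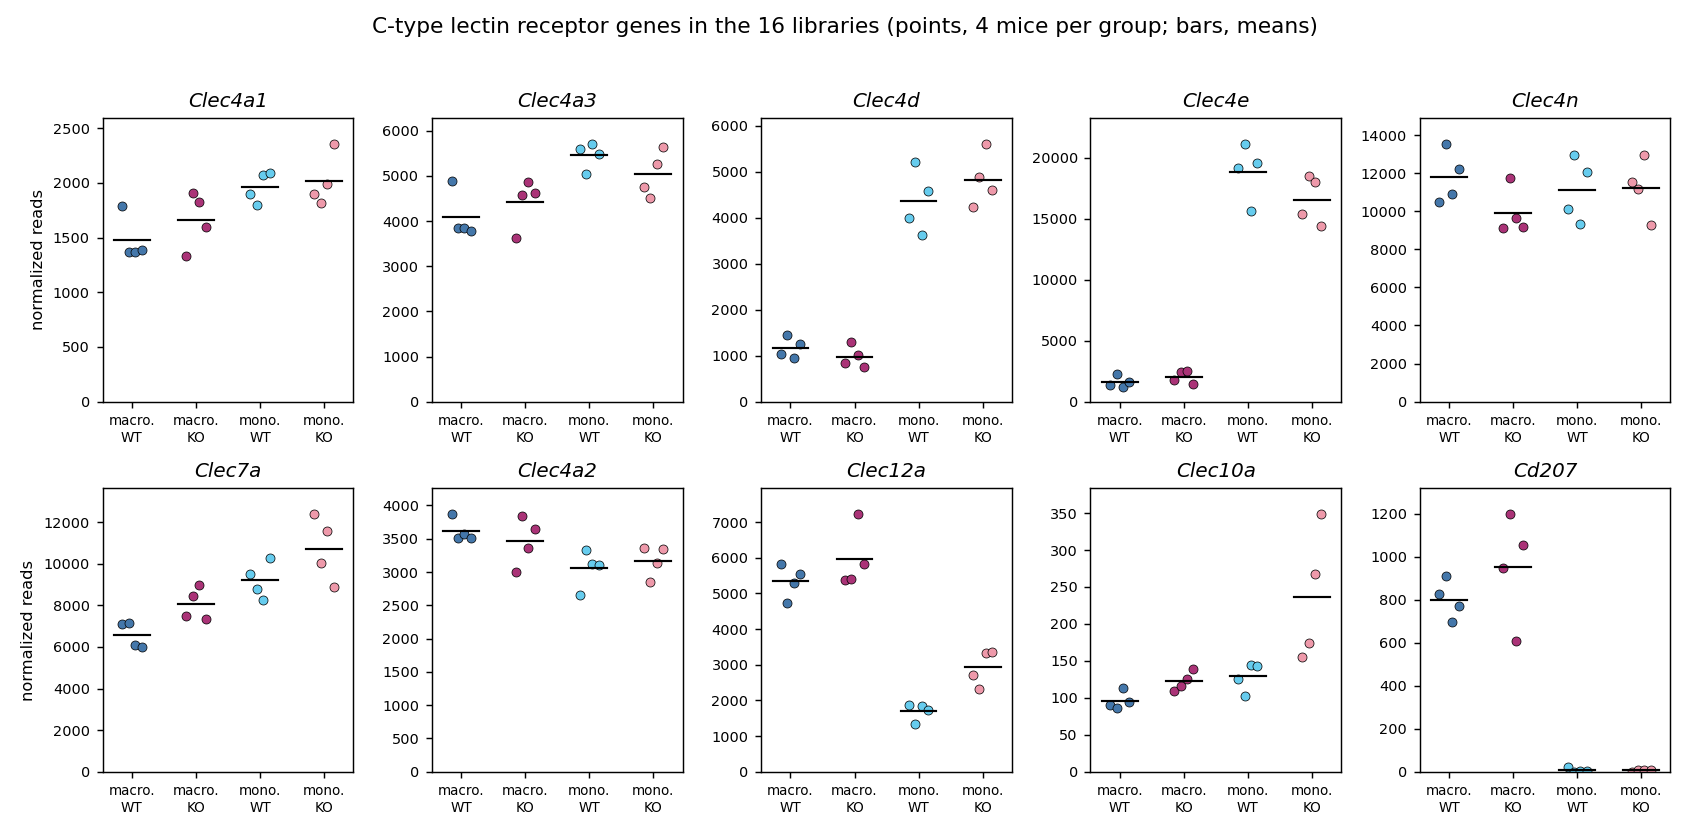
Normalized reads (y axes, linear, starting at 0, 1 panel per gene with its own scale) in the 4 groups (x axes), with 1 point per library and a line at the group mean. Clec4d and Clec4e stood high in the monocyte libraries, Cd207 and Clec12a in the macrophage libraries, and Clec12a was higher in all 4 knockout monocyte libraries than in any wild-type monocyte library.

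The first comparison asked how the receptor genes differed between both cell types of one tumour. In wild-type mice 9 of the 10 genes differed between macrophages and monocytes (limma, adjusted p under 0.05), against 63.4% of all 12769 genes tested. Of these, 3 were higher in macrophages (Cd207, Clec12a and Clec4a2) and 6 were higher in monocytes (Clec4e, Clec4d, Clec7a, Clec4a1, Clec4a3 and Clec10a), where 31.7% of all genes were called in each direction. In knockout mice 6 of the 10 differed, against 60.5% of 12772 genes (31.0% higher in macrophages and 29.6% lower), with Cd207 and Clec12a higher in macrophages and Clec4e, Clec4d, Clec7a and Clec10a higher in monocytes. Most genes that passed the filter differed between the cell types, so the number of receptor genes called is to be read against that share. The median log2 difference, macrophages minus monocytes, was -0.29 over the 10 genes and -0.01 over all genes in wild type.

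Clec4e and Clec4d are neighbours that code for Mincle and MCL, receptors for mycobacterial glycolipids that form a complex with FcRγ. Clec4e had 19190, 21140, 15640 and 19550 normalized reads in monocytes of wild-type mice 1 to 4 and 1350, 2273, 1197 and 1639 in their macrophages. In knockout mice 6 to 9 it had 15360, 18490, 18020 and 14380 in monocytes and 1786, 2404, 2476 and 1431 in macrophages. Every monocyte library was far above every macrophage library. Mean Clec4e was 11.7-fold higher in monocytes in wild type (log2 difference, macrophages minus monocytes, -2.53 ± 0.12, SE; limma, adjusted p = 1.24e-07) and 8.18-fold higher in knockout (-2.17 ± 0.11; adjusted p = 5.77e-08).

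Clec4d had 3994, 5210, 3623 and 4584 normalized reads in monocytes of wild-type mice 1 to 4 and 1043, 1453, 940.0 and 1261 in their macrophages. In knockout mice 6 to 9 it had 4236, 4881, 5599 and 4591 in monocytes and 834.2, 1294, 1012 and 747.2 in macrophages. Again no macrophage library reached the lowest monocyte library. Mean Clec4d was 3.71-fold higher in monocytes in wild type (-1.35 ± 0.11, SE; limma, adjusted p = 2.56e-06) and 4.97-fold higher in knockout (-1.66 ± 0.11; adjusted p = 2.44e-07). Within the wild-type groups, mouse 2 gave the highest library for Clec4d, Clec4e and Clec4n in both cell types.

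Both genes lie at the end of a cluster of Clec4 genes. On GRCm38 chromosome 6, Clec4d spans bases 123262111 to 123275265 on the plus strand and Clec4e bases 123281789 to 123289870 on the minus strand, so that their 3′ ends face each other 6.524 kb apart. Clec4a1, Clec4a3, Clec4a2, Clec4n, Clec4d and Clec4e occupy 368.0 kb (bases 122921848 to 123289870), a stretch that holds 11 genes of the matrix. Among these 6 genes the log2 difference between cell types in wild type, macrophages minus monocytes, ranged from -2.53 for Clec4e to 0.18 for Clec4a2. Clec4b1, another gene of the cluster, was higher in wild-type macrophages (log2 difference 1.12; limma, adjusted p = 3.15e-05).

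The 250 bases before the start of Clec4e and Clec4d, which were higher in monocytes, and of Cd207, which was higher in macrophages, are shown to set the start regions of genes with opposite patterns side by side (RefSeq windows, GRCm38.p6). The windows lie at chr6:123289872-123290121 (minus strand), chr6:123261857-123262106 (plus strand) and chr6:83677858-83678107 (minus strand), 5′ to 3′ in the direction of the gene. Capitals mark matches on either strand to the core of the PU.1 motif (GAGGAA), the C/EBP motif (TTGCNNAA) and the AP-1 motif (TGANTCA), with N for any base.
Clec4e: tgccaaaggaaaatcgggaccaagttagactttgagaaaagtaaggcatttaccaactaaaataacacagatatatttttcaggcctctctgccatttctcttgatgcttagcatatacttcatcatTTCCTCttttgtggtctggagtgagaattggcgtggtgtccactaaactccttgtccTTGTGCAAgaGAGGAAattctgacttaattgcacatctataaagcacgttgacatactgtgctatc
Clec4d: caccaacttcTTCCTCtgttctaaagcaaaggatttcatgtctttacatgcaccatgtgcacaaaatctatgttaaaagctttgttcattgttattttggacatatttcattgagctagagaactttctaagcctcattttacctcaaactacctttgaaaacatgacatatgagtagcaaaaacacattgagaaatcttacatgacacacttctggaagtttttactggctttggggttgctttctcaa
Cd207: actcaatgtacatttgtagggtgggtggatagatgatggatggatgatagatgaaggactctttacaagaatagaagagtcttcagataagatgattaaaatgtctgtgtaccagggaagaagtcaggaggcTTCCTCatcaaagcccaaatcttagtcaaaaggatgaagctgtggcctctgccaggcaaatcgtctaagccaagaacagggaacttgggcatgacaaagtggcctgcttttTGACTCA

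PU.1, C/EBP and AP-1 are transcription factors known for their part in myeloid gene expression. Start windows were at hand for 8 of the 10 genes (10 windows, since Clec4a3 and Clec7a have several starts), and those of Clec4n and Clec10a were not used here. The PU.1 core was present in 8 of the 10 windows, from 7 of the 8 genes, against 23.3% of 32851 mouse start windows of the same length. The windows of a gene with several starts overlap and are not independent, and the window of Clec12a lies in an annotated exon. The C/EBP motif was present in 2 of the 10 windows (Clec4e and Clec12a), against 9.56% of all windows. The AP-1 motif was also in 2 (Cd207 and Clec12a), against 6.75%. In Clec4e the C/EBP match lay 66 to 59 bases before the start and was followed by a PU.1 core 56 to 51 bases before it. In Cd207 the AP-1 match took the last 7 bases before the start. The interferon response motif and the E-box (CACGTG) were in 0 of the 8 genes' windows, against 2.98% and 6.02% of all windows. Motifs did not share bases in the windows shown. These are matches of letters in the reference sequence and not measured binding sites.

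Clec4n, which codes for Dectin-2, a receptor for mannose-rich glycans that signals through FcRγ, was nearly level between the cell types. It had 10510 to 13530 normalized reads in wild-type macrophages and 9311 to 12970 in wild-type monocytes. The log2 difference was 0.07 with a 95% interval from -0.12 to 0.25 (limma, adjusted p = 0.503), and in knockout -0.13 with an interval from -0.30 to 0.05 (adjusted p = 0.188). Neither interval reached the difference of its neighbours Clec4d or Clec4e.

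Clec7a codes for Dectin-1, which binds β-glucan of fungal walls and signals by its own tail motif to Syk. GENCODE M21 annotates the gene (chromosome 6, bases 129461591 to 129472779, minus strand) as a polymorphic pseudogene, a class for genes that are coding in some strains. It had 9496, 8779, 8238 and 10280 normalized reads in wild-type monocytes and 7115, 7159, 6067 and 5986 in wild-type macrophages, without overlap. Monocytes were higher by 1.40-fold in wild type (log2 difference, macrophages minus monocytes, -0.34 ± 0.06, SE; limma, adjusted p = 0.00051) and by 1.33-fold in knockout (-0.29 ± 0.08; adjusted p = 0.00661), where the groups overlapped.

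Clec4a1 and Clec4a3 belong to the dendritic cell immunoreceptor group, as does the inhibitory Clec4a2, whose tail motif recruits phosphatases. In wild type Clec4a1 was 1.33-fold higher in monocytes (1965 ± 140 against 1478 ± 208 normalized reads, SD, n = 4; limma, adjusted p = 0.00232). Clec4a3 was 1.34-fold higher in monocytes (5464 ± 288 against 4092 ± 534; limma, adjusted p = 0.00109). Clec4a2 went the other way, 1.18-fold higher in macrophages (3618 ± 170 against 3056 ± 286; limma, adjusted p = 0.0121). In knockout none of these 3 genes passed the test: the adjusted p was 0.0559 for Clec4a1, 0.122 for Clec4a3 and 0.254 for Clec4a2, and all 3 pairs of groups overlapped. Clec4a1 passed in knockout with the mouse as a block (adjusted p = 0.0454), with all 16 libraries in 1 fit (0.0387) and without mouse 7 (0.0265). The wild-type call of Clec4a2 was lost without mouse 1 (adjusted p = 0.0643).

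Cd207 codes for langerin, a mannose-binding endocytic receptor known from Langerhans cells of the skin. It had 826.7, 908.0, 696.2 and 772.5 normalized reads in wild-type macrophages and 948.2, 1198, 605.7 and 1054 in knockout macrophages. In wild-type monocytes it had 21.0, 0, 5.635 and 5.45 normalized reads, and 0, 9.641, 8.683 and 9.75 in those of knockout mice. The gene was thus at or near 0 in every monocyte library and at no less than 605.7 normalized reads in every macrophage library. The mean was 99.9-fold higher in macrophages in wild type (log2 difference 4.12 ± 0.18, SE; limma, adjusted p = 1.12e-08) and 136-fold higher in knockout (4.35 ± 0.19; adjusted p = 6.54e-09). The monocyte means rest on 28 and 29 recovered reads per group, so that the size of these folds is imprecise.

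Epcam and Cdh1 are the other genes known from Langerhans cells that were examined beside Cd207. Epcam averaged 1.81 normalized reads in wild-type macrophages, with 0 in 1 library, and 15.95 in knockout macrophages. In monocytes, where Cd207 was near 0, it averaged 2.27 in wild type and 27.0 in knockout. Epcam passed between genotypes in both cell types, on few reads. Its log2 difference, knockout minus wild type, was 1.08 in macrophages and 1.43 in monocytes (limma, adjusted p = 0.00119 and 0.000938). Cdh1 averaged 440.7 normalized reads in wild-type macrophages, 623.3 in knockout macrophages, 680.1 in wild-type monocytes and 429.1 in knockout monocytes. Summed over the whole 4-gene list, which includes Cd207 itself and Cd1d1, wild-type macrophages had 1174 to 1515 and knockout macrophages 1382 to 1919 normalized reads. Wild-type monocytes had 789.9 to 1454 and knockout monocytes 644.3 to 791.8. In wild type, 1 of the 3 list genes tested, Cd207 itself, was higher in macrophages than in monocytes, and 2 were lower. In knockout, 2 of the 4 tested were higher in macrophages, Cd207 among them, and 2 were lower. Cd207 alone gave 696.2 to 908.0 normalized reads of the wild-type macrophage sums and 605.7 to 1198 of the knockout macrophage sums. The part of such cells in the Cd207 values was not tested.

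Clec12a codes for an inhibitory receptor that binds uric acid crystals released by dying cells. It had 5835, 4723, 5283 and 5551 normalized reads in wild-type macrophages and 1859, 1353, 1847 and 1723 in wild-type monocytes. The macrophage libraries were all above the monocyte libraries, by 3.15-fold on the means (log2 difference 1.17 ± 0.07, SE; limma, adjusted p = 1.34e-07). In knockout mice the macrophage mean was 2.03-fold higher (0.74 ± 0.09; adjusted p = 3.7e-05), again without overlap.

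Clec10a, the endocytic receptor for galactose-type sugars that is known as MGL1 in the mouse, was the least abundant of the 10 genes in macrophages. It was 1.35-fold higher in monocytes in wild type (129.0 ± 19.5 against 95.79 ± 11.6 normalized reads, SD, n = 4; limma, adjusted p = 0.0378), with overlapping groups. That call was lost in 6 of 9 alternatives, among them the fits without mouse 1, 3 or 4 (adjusted p = 0.109, 0.0645 and 0.163). In knockout it was 1.93-fold higher in monocytes, without overlap (log2 difference, macrophages minus monocytes, -0.62 ± 0.17, SE; adjusted p = 0.00686). A run of 82 identical bases is shared between transcripts of Clec10a and its paralog Mgl2, so counts of these genes could be split by the authors' counting.

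**Figure D2:**
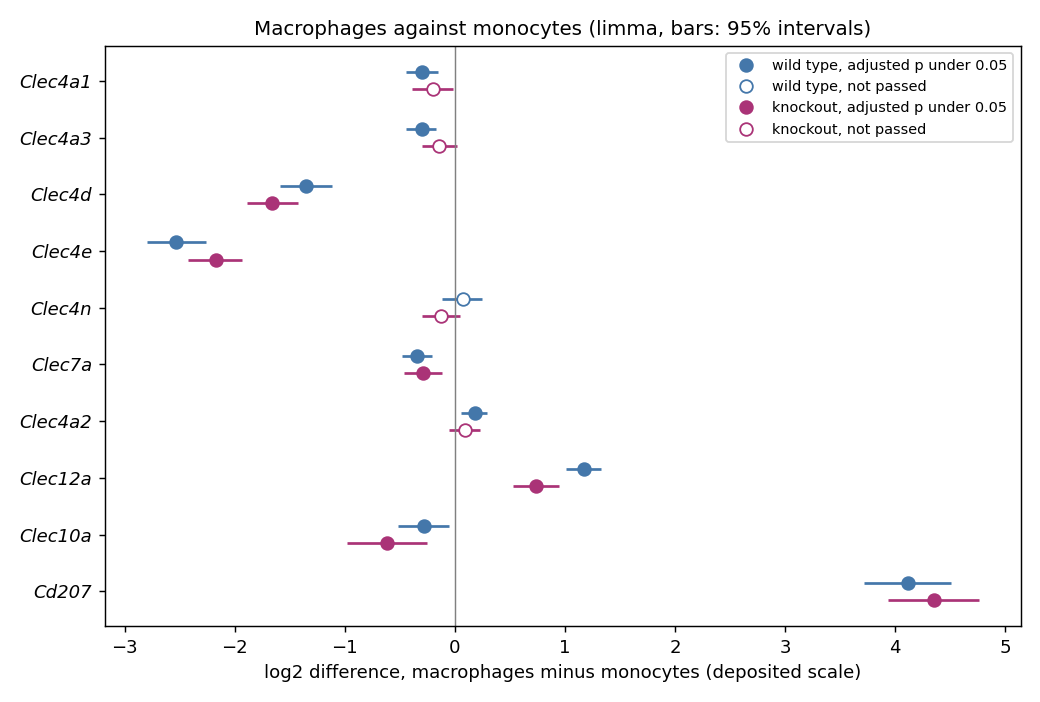
Log2 difference of macrophages minus monocytes on the deposited scale (x axis) for each gene (y axis), in wild-type and knockout mice, with 95% intervals from limma as bars and filled points for an adjusted p under 0.05. Cd207 and Clec12a lie to the right of 0 and Clec4e and Clec4d to the left in both genotypes, while Clec4n crosses 0 in both.

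Genes that act downstream of these receptors were counted in lists. In wild type, 11 of 19 tested genes of the adaptor and Syk list were higher in monocytes and 5 were higher in macrophages, against 31.7% of all tested genes in each direction. Fgr, a Src-family kinase, had 13140 ± 668 normalized reads in monocytes and 5327 ± 338 in macrophages (SD, n = 4; limma, adjusted p = 2.03e-08), while Blnk, an adaptor for Syk, had 203.5 ± 45.0 and 5103 ± 332 (adjusted p = 2.46e-10). Of the 17 genes of the Card9 complex and NF-κB, 12 were higher in monocytes and 2 in macrophages, against the same shares. Ikbkb, a kinase that activates NF-κB, had 9205 ± 516 normalized reads in monocytes and 4052 ± 84.4 in macrophages (SD, n = 4; limma, adjusted p = 1.85e-08). Malt1, the protease of the Card9 complex, had 2248 ± 333 and 846.2 ± 47.2 (adjusted p = 3.57e-07). The median log2 difference, macrophages minus monocytes, was -0.25 for the Syk list and -0.36 for the Card9 list, against -0.01 over all genes.

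Of 20 tested output genes of C-type lectin signalling, 14 were higher in wild-type monocytes and 3 in macrophages, against 31.7% of all tested genes in each direction. Signalling was not measured, and the part of the receptors in the RNA of these genes was not tested in any comparison. Il1b averaged 79140 ± 4880 normalized reads in wild-type monocytes and 16330 ± 3640 in macrophages (SD, n = 4; limma, adjusted p = 6.35e-08). Egr1, an early response transcription factor, averaged 21240 ± 3010 and 5031 ± 1010 (adjusted p = 1.25e-06). Of the 10 phosphatases and inhibitors, 4 were higher in monocytes and 1, Inppl1, in macrophages, against the same shares of all genes. Dok2, an inhibitory adaptor, averaged 6906 ± 1180 normalized reads in monocytes and 2455 ± 411 in macrophages, and Cblb, a ubiquitin ligase, 650.3 ± 65.1 and 284.4 ± 21.3 (limma, adjusted p = 1.04e-05 and 1.34e-06). Ptpn6, the phosphatase SHP-1 that inhibitory receptors recruit, averaged 23770 and 25230 normalized reads in macrophages and monocytes and did not pass (adjusted p = 0.275). Among other C-type lectin receptors, 6 of 15 tested were higher in wild-type monocytes, and 5 in macrophages. Olr1, a receptor for oxidized lipoproteins, averaged 1815 ± 396 normalized reads in monocytes and 64.88 ± 8.68 in macrophages, and Clec2i 363.2 ± 36.6 and 9.97 ± 3.31 (limma, adjusted p = 2.48e-09 and 4.17e-09).

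In knockout mice 12 of 19 genes of the Syk list were higher in monocytes and 5 in macrophages, against 29.6% and 31.0% of all tested genes. For the Card9 list the counts were 10 and 1 of 17, for the output genes 9 and 4 of 20, for the phosphatases 4 and 1 of 10, and for other C-type lectin receptors 8 and 5 of 17. Genes higher in knockout monocytes included Fgr, Ikbkb, Malt1, Dok2, Cblb, Egr1 and Clec2i, as in wild type. Clec2i, for example, averaged 419.0 ± 79.7 normalized reads in monocytes and 16.6 ± 2.36 in macrophages (SD, n = 4; limma, adjusted p = 1.72e-09). Blnk, Cd72 and Il12b were higher in knockout macrophages. Cd72, an inhibitory lectin, averaged 24430 ± 1850 normalized reads there and 2321 ± 240 in monocytes, and Il12b, a subunit of interleukin-12, 92.34 ± 32.6 and 4.48 ± 4.41 (adjusted p = 2.81e-11 and 1.43e-06).

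The second comparison set knockout mice against wild-type mice in each cell type. A knockout effect below means this difference between genotypes, and its cause was not tested. In macrophages 0 of the 10 genes passed the test (limma, adjusted p under 0.05), against 5.7% of 12568 genes. At an unadjusted p under 0.05 there were 3 (Clec7a, Clec4n and Clec10a), against 20.2% of all genes tested, and limma-voom on recovered reads and the authors' deposited table also called 0. In monocytes 1 of the 10, Clec12a, was higher in knockout, against 1.4% of 12867 genes called higher and 3.32% called in either direction. The groups did not overlap for 1 gene in macrophages (Clec7a), against 13.1% of all genes, and for 2 in monocytes (Clec12a and Clec10a), against 11.1%.

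Clec12a had 1859, 1353, 1847 and 1723 normalized reads in wild-type monocytes and 2725, 2334, 3330 and 3371 in knockout monocytes. All 4 knockout libraries were above all 4 wild-type libraries, with mice 8 and 9 the highest. The mean rose 1.73-fold (log2 difference 0.54 ± 0.09, SE, 95% interval 0.33 to 0.75; limma, adjusted p = 0.00867). The call held in all 13 alternatives, with adjusted p from 5.63e-07 to 0.0354. In the authors' deposited table the log2 difference was 0.79 (adjusted p = 5.63e-07).

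In wild-type macrophages Clec12a had 5835, 4723, 5283 and 5551 normalized reads, and in knockout macrophages 5382, 5402, 7225 and 5820. The groups overlapped, with mouse 8 alone above the wild-type range, and the log2 difference was 0.11 with a 95% interval from -0.05 to 0.27 (limma, adjusted p = 0.455). The difference of the knockout effects, macrophages minus monocytes, was -0.43 ± 0.13 (SE) and did not pass in the fit without a block (limma, adjusted p = 0.171). With the mouse as a replicate block, which uses that both cell types came from the same animals, it passed at the same size (adjusted p = 0.00834).

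The start window of Clec12a lies in an annotated exon, so only 30 bases of it are shown, because they hold a pair of PU.1 cores on opposite strands, in capitals. They lie 64 to 35 bases before the RefSeq start, at chr6:129350180-129350209 on the plus strand of GRCm38.p6. Such a pair was not particular to Clec12a. The window of Clec4e also held PU.1 cores on opposite strands, 123 to 118 and 56 to 51 bases before its start.
Clec12a: tatGAGGAAgaaaagtgTTCCTCtttcaat

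The 3 genes whose values over the 16 libraries were most like those of Clec12a were Ptms, Pak1 and Gnb1l. The root mean square difference of the centred log2 values was 0.153, 0.156 and 0.161, among 10654 genes compared, where the values of Clec12a themselves had a root mean square of 0.531. Pak1, a kinase of the cytoskeleton, averaged 3850 and 3917 normalized reads in wild-type and knockout macrophages and 1436 and 1868 in monocytes.

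Clec10a had 126.0, 102.7, 144.6 and 142.8 normalized reads in wild-type monocytes and 155.0, 174.7, 268.2 and 348.6 in knockout monocytes. The groups did not overlap, but the knockout values spread widely, with mice 8 and 9 well above mice 6 and 7. The mean was 1.83-fold that of wild type, and the log2 difference of 0.57 ± 0.17 (SE, 95% interval 0.19 to 0.96) did not pass (limma, adjusted p = 0.108). It passed with all 16 libraries in 1 fit (adjusted p = 0.0232), without mouse 6 (0.0456) and in the authors' deposited table (log2 difference 0.88, adjusted p = 0.00237). In wild-type macrophages Clec10a had 90.27, 86.42, 112.7 and 93.81 normalized reads, and in knockout macrophages 109.4, 115.5, 126.0 and 139.2. These groups overlapped only between wild-type mouse 3 and knockout mouse 6, and the log2 difference was 0.24 ± 0.09 (SE; limma, adjusted p = 0.186).

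Dendritic cell and neutrophil markers were examined beside Clec10a and Clec12a in monocytes, although the gate was CD11c- and Ly6G-. Cd209a, another C-type lectin receptor that monocyte-derived dendritic cells carry, had 12.35, 2.567, 15.03 and 6.541 normalized reads in wild-type and 127.8, 147.0, 621.3 and 789.8 in knockout monocytes. Mice 8 and 9 were the highest, as they were for Clec10a and Clec12a. Some genes outside the dendritic cell list had the same order, and not every gene on it did. In knockout monocytes of mice 6 to 9, H2-Aa had 60220, 51720, 85780 and 77590 normalized reads. Mrc1, a macrophage marker, had 418.0, 977.4, 1246 and 2889 there. Zbtb46, a dendritic cell marker, had 30.06, 57.85, 35.7 and 39.0. Flt3, the receptor of the dendritic cell growth factor, had 64.22, 70.6, 181.3 and 27.25 normalized reads in wild-type and 161.6, 185.6, 213.2 and 263.3 in knockout monocytes, with overlap between the groups. Some other markers of the list were lower on average. Itgax, which encodes CD11c, had 3564 to 4781 in wild-type and 1925 to 3369 in knockout monocytes, without overlap. Ccr7 averaged 68.5 and 45.48 and Zbtb46 48.62 and 40.65 normalized reads in wild-type and knockout monocytes, with overlap. Irf4, in contrast, averaged 53.25 and 104.7. Summed over the 14-gene dendritic cell list, wild-type monocytes had 25620 to 32400 and knockout monocytes 25550 to 27890 normalized reads, with 1 gene called higher (Cd209a) and 1 lower (Itgax) of 12 tested. Neutrophil markers also varied, with Ngp between 0 and 4484 and S100a8 between 27.63 and 855.7 normalized reads in knockout monocytes. In wild-type monocytes they had averaged 0.93 and 1782. Of 9 neutrophil markers tested, 1 was called, Retnlg, at 31.27 in wild type and 272.3 in knockout on average (log2 difference 2.39; limma, adjusted p = 0.00794). The summed 13-gene list had 8952 to 12780 in wild-type and 7320 to 19530 in knockout monocytes, highest in mouse 7. The part of these cells in the Clec12a and Clec10a values was not tested.

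Clec7a had 7115, 7159, 6067 and 5986 normalized reads in wild-type macrophages and 7463, 8438, 8984 and 7333 in knockout macrophages. All knockout libraries were above all wild-type libraries, by a small margin. The log2 difference was 0.21 ± 0.06 (SE, 95% interval 0.07 to 0.34) and did not pass (limma, adjusted p = 0.0759, and 0.0735 to 0.189 over 13 alternatives). In monocytes the log2 difference was 0.15 with an interval from -0.02 to 0.33 (adjusted p = 0.366).

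No other gene of the 10 passed between genotypes. The intervals of Clec4e in macrophages and of Clec10a and Cd207 in monocytes could hold a difference as large as that of Clec12a in monocytes. The other intervals did not reach that size. In macrophages Clec4n had a log2 difference of -0.18 (95% interval -0.34 to -0.02; limma, adjusted p = 0.189) and Clec4d of -0.19 (-0.47 to 0.10). Clec4e had a log2 difference of 0.21 in macrophages (-0.14 to 0.56) and -0.14 in monocytes (-0.33 to 0.04). For Clec4a1, Clec4a2 and Clec4a3 the log2 differences between genotypes ran from -0.09 to 0.12 over both cell types, and none of their intervals went beyond 0.31 on either side of 0. Cd207 had a log2 difference of -0.06 in monocytes (-0.55 to 0.43), on few reads, and of 0.17 in macrophages (-0.18 to 0.52; adjusted p = 0.609), where knockout mouse 8 was the lowest of all macrophage libraries. Without mouse 8 it was higher by 0.33 and passed (adjusted p = 0.0492).

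**Figure D3:**
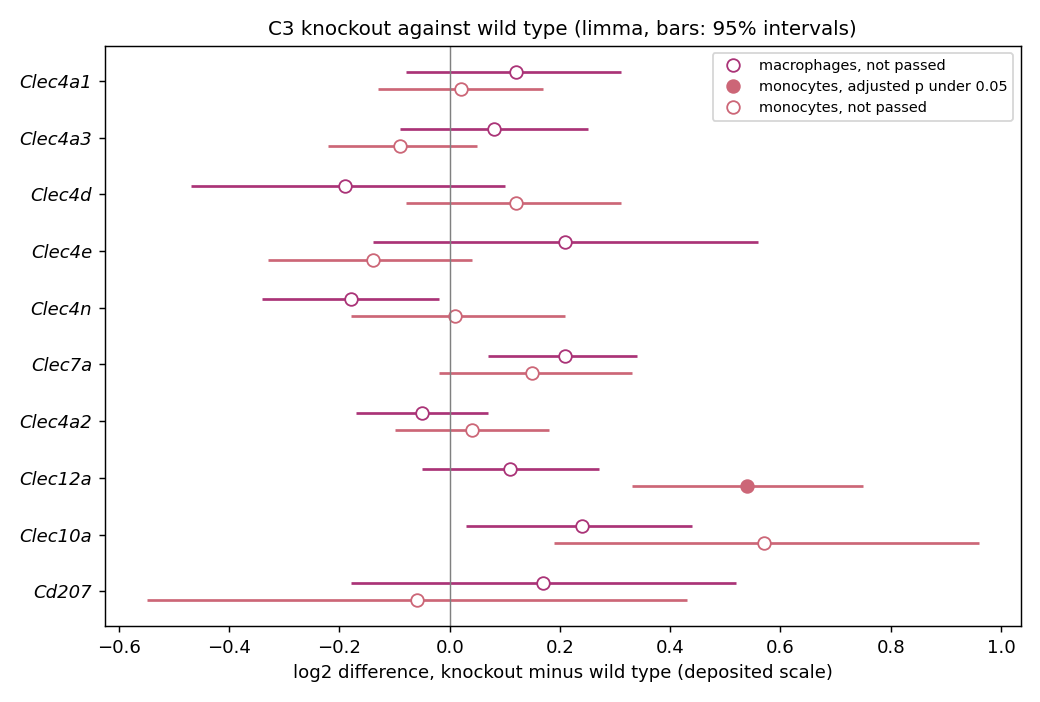
Log2 difference of knockout minus wild type on the deposited scale (x axis) for each gene (y axis) in macrophages and in monocytes, with 95% intervals from limma as bars and a filled point for an adjusted p under 0.05. Clec12a in monocytes is the filled point, and Clec10a in monocytes has a difference of like size with a wider interval.

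The difference of the knockout effects between cell types passed for 0 of the 10 genes in the fit without a block (limma), against 0.617% of 13134 genes. At an unadjusted p under 0.05 there was 1, Clec12a, against 11.4% of all genes tested, and limma-voom on recovered reads called 0. Among other C-type lectin receptors 1 of 17 tested, Cd209a, passed (log2 difference of effects -3.13 ± 0.60, SE; adjusted p = 0.0244), a call lost without mouse 1, 2, 3, 4 or 9 (adjusted p up to 0.108), without the filter (0.0639) and with limma-voom (0.755). With the mouse as a replicate block 2 genes passed, Clec12a and Clec4e, with 251 genes called in all against 81 without the block. For Clec4e the difference of effects was 0.35 ± 0.18 (SE; adjusted p = 0.485, and 0.042 with the block).

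Of 16 other C-type lectin receptors tested, 2 were higher and 1 was lower in knockout in each cell type, against 5.7% of all genes tested in macrophages and 3.32% in monocytes in either direction. Clec4b1, which lies inside the Clec4 cluster between Clec4a3 and Clec4a2, rose in both. It averaged 77.84 and 131.8 normalized reads in wild-type and knockout macrophages (log2 difference 0.53; limma, adjusted p = 0.0225) and 21.11 and 84.36 in monocytes (1.09; adjusted p = 0.0446). The calls of Clec4b1 were not examined under the alternatives. In macrophages Cd72 was also higher (1.27-fold; adjusted p = 0.0164) and Mrc1, the mannose receptor, lower (0.760-fold; adjusted p = 0.00567). The authors' deposited table gave neither of these calls, and a joint fit of the 16 libraries lost both. The Cd72 call was also lost without mouse 2, 3 or 4 (adjusted p = 0.052, 0.0513 and 0.0564). In monocytes Cd209a was higher (adjusted p = 0.00418, but 0.133 with limma-voom) and Cd302 lower (0.768-fold; adjusted p = 0.0385, lost without any 1 of mice 1, 2, 3, 4, 7, 8 or 9).

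Downstream genes were also counted between genotypes. The share called over all genes tested, in either direction, was 5.7% in macrophages and 3.32% in monocytes. In macrophages Vav3 and Fyn rose among 19 genes of the Syk list (1.31-fold and 1.28-fold; limma, adjusted p = 0.00196 and 0.0388), and Rel, a subunit of NF-κB, among 17 of the Card9 list (1.54-fold; adjusted p = 0.000374). The Fyn call was lost in most fits that left out a mouse, and the Vav3 call with all 16 libraries in 1 fit (adjusted p = 0.100). In monocytes 0 genes of both lists passed by limma. Among the 10 phosphatases and inhibitors Inppl1, the lipid phosphatase SHIP2, rose in knockout monocytes from 761.8 ± 72.8 to 1412 ± 274 normalized reads (SD, n = 4; adjusted p = 0.00435), and 0 passed in macrophages. Of the output genes, 0 of 20 passed in macrophages. Of 21 in monocytes, Socs1 rose (adjusted p = 0.0332) and Egr1 and Pycard fell (0.566-fold and 0.767-fold; adjusted p = 0.00827 and 0.0299). The Pycard call was lost without any 1 of mice 1, 2, 3, 4, 7, 8 or 9 (adjusted p up to 0.0951). The Socs1 call was not examined under the alternatives. The median log2 difference of the output genes in monocytes was -0.27, against -0.01 over all genes.

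Positions were examined because 9 of the 10 genes lie on chromosome 6 (Clec10a is on chromosome 11, bases 70156197 to 70170834). Clec12a (bases 129342691 to 129365303) and Clec7a lie 96.29 kb apart, 6.053 Mb beyond Clec4e. In the 5 Mb bin from 125 to 130 Mb that holds both, 1.72% of tested genes in macrophages and 5.17% in monocytes differed between genotypes. The bin from 120 to 125 Mb with the Clec4 cluster had 3.85% and 1.92%. From 135 to 140 Mb the share was 47.6% in macrophages, and 11 of 22 tested genes were called in monocytes. The background was 5.7% and 3.32%. The bin with Clec12a was below it in macrophages and above it in monocytes, where the calls were few. Of 58 genes tested there in monocytes, 1 was called higher, Clec12a itself, and 2 lower. The bin from 135 to 140 Mb was far above the background in both cell types. The nearest gene called in monocytes before Clec12a was Foxm1 at 0.967 Mb, and the nearest after it was Klra2 at 1.85 Mb. From 130 to 135 Mb, 1 of 20 tested genes was called higher and 1 lower in monocytes. In macrophages 1 of 19 was called higher there. Within 10 Mb of Clec12a, 14 of 155 tested genes (9.03%) were called in macrophages and 17 of 157 (10.8%) in monocytes. Both shares were above the background of 5.7% and 3.32%.

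**Figure D4:**
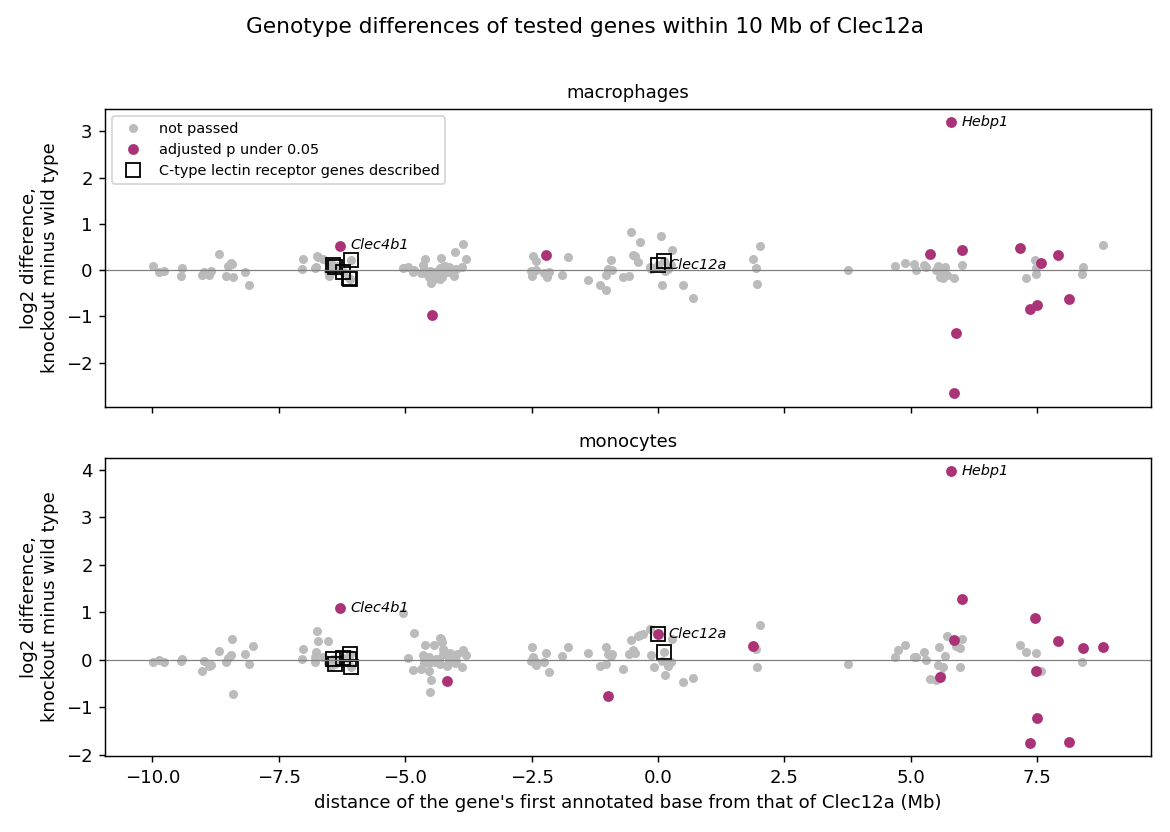
Log2 difference of knockout minus wild type on the deposited scale (y axes) of each tested gene against the distance of its first annotated base from that of Clec12a (x axis, Mb), in macrophages and monocytes, with coloured points for an adjusted p under 0.05 and squares for the C-type lectin receptor genes described. Clec12a stands among genes that mostly did not pass, and a dense group of called genes lies beyond 5 Mb.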

How the data were processed

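RNA-seq of 16 libraries, each from 5 ng of RNA by the SMART-Seq v4 kit per the labels' protocols, was analysed from processed files. The submitters' processing notes name STAR 2.7.2b, bcl2fastq 2.19.0.316, the build GRCm38 and DESeq2, with no role given for any of them. The matrix the authors deposited holds log2 values of 30819 genes, and no header says which transform was used. They also deposited, per the file headers, 1 table per cell type that sets wild type against knockout. The base mean there is a signal deposited by the authors, the mean of scaled reads, and its log2 fold changes, Wald score and p-value columns are the authors' own, with the sign turned here to knockout minus wild type.

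The values followed a regularized logarithm, and inverting it with the authors' base mean gave values within 0.05 of a whole read for 82.5% of values of 20443 genes (97.4% at base means of 1 to 10, 44.4% from 1000 on). The inversion was tested on simulated data. The kit does not mark strand. Only Clec4a2 overlaps another annotated gene, a processed pseudogene with a mean of 2.16 normalized reads.

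Limma 3.58.1 (R 4.3.3, trend, robust) was fitted to the log2 values of genes with a linear value of 10 or more in 4 libraries or more. The linear value was taken from the deposited log2 value, not from reads. Cd207 in monocytes passed at deposited log2 values of 4.33 to 5.44, where it had 0 to 21.0 normalized reads. A call needed a p, adjusted by Benjamini and Hochberg over all genes tested, under 0.05. The plan had allowed for counts or linear values as well. A comparison was fitted on the 8 libraries it concerns, and the difference of knockout effects on all 16. Exact permutation of 4 against 4 cannot go below p = 0.0286. The mice are separate animals, and each gave macrophages as well as monocytes, so the mouse numbers pair the libraries: correlations across genes of deviations from group means ran from 0.031 to 0.417 for 8 pairs of the same mouse and from -0.323 to 0.188 for 24 of different mice of a genotype. Intervals are limma's 95% intervals, not adjusted for the number of genes. From each list, the 2 called genes with the smallest p were named, given a mean linear value of 50 or more in the higher group; other list genes named (Ptpn6, Clec4b1, Socs1, and Inppl1 in the comparison of cell types) were picked with their values known. The members and lists were chosen with earlier results of these data known. Coordinates and exon lengths are from GENCODE M21, start windows from RefSeq, and identical runs of at least 50 bases from blastn 2.17.0. Alternatives were no filter, trimmed-mean scaling, limma-voom on recovered reads, all 16 libraries in 1 fit, the mouse as a replicate block, the authors' tables and leaving out each mouse.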

Additional observations from a re-analysis of the deposited data

Results flagged for a closer look

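In 40 groups of 4 libraries (10 genes in 4 groups), 3 values stood apart from the others of their group by Dixon's test, with a gap over the group's range above the 95% critical value for 4 samples. Chance gives about 1 such value in 20 groups. Clec4a1 in wild-type macrophages of mouse 1 was 1790 normalized reads, against 1365 to 1387 in mice 2 to 4 (ratio 0.948). Clec4a3 in the same library was 4891, against 3775 to 3858 (ratio 0.926). Cd207 in knockout monocytes of mouse 6 was 0 normalized reads, where the other libraries had 8.683 to 9.75 (ratio 0.891).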

How the results depend on the processing

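Over all alternatives, 870 values of single genes kept their direction and their side of the threshold, 49 lost a call, 9 gained one and 10 changed sign. The changes of sign were of small differences that had not passed: in knockout against wild-type monocytes, Cd207 without replicate 1 (0.14) and 6 (0.10), Clec4a1 without 2 (-0.01) and 9 (-0.03), Clec4a2 without 1 (-0.01) and Clec4n without 1 (-0.02), 3 (-0.04) and 8 (-0.04). Without 1 mouse these ran from -0.18 to 0.14, -0.03 to 0.06, -0.01 to 0.08 and -0.04 to 0.08. In the difference of knockout effects, Clec7a changed sign without replicate 4 (-0.02, in a range up to 0.13) and C3 with limma-voom (-0.06).

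Leaving out 1 mouse gave 458 to 656 called genes for the genotypes in macrophages (717 with all mice) and 237 to 459 in monocytes (427), with 0 to 1 and 1 to 2 of the 10 receptor genes. It gave 6723 to 7362 for the cell types in wild type (8094; 7 to 9 of the 10), 6383 to 6970 in knockout (7732; 6 to 7) and 34 to 91 for the difference of effects (81; 0 of the 10). In monocytes all 16 libraries in 1 fit called 981 genes, and 1329 genes were called in the authors' deposited table, each with 2 of the 10. The replicate block (mouse) called 251 genes for the difference of effects and 2 of the 10. It also added Clec4a1 in knockout cell types and changed no other call of the 10. Trimmed-mean scaling moved the higher and lower calls in monocytes from 180 and 247 to 229 and 207, and for the difference of effects from 47 and 34 to 29 and 47. For the genotypes in macrophages it moved them from 323 and 394 to 258 and 420, and for the cell types in wild type from 4050 and 4044 to 4568 and 3519. The cause of these changes was not tested. The low reads of Cd207 in monocytes limit any comparison of genotypes there.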
